A study of Mus musculus with 8 samples.

Results

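The enzymes that turn arachidonic acid into prostaglandins and leukotrienes were examined in neutrophils from mouse bone marrow. The 10 genes were taken by name, with earlier results of these data known: Pla2g4a, Ptgs1, Ptgs2, Ptges, Ptges3, Ptgr1, Alox5, Alox5ap, Lta4h and Ltc4s. They were 10 of 24421 genes in the count table. Of them, 9 passed the filter of 1 count or more in 2 libraries or more, and were tested among 12254 genes. Ltc4s had 1 count in all and was not tested.

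Neutrophils of 8-week-old wild type (WT) mice and of Padi4 KO mice, both C57BL/6, were left unstimulated (Nostim) or given 1 µg/ml of R848, an agonist of the endosomal RNA sensor TLR7, and each of the 4 groups had 2 libraries. Padi4 encodes a peptidylarginine deiminase that converts arginine to citrulline, and its exon 1 was deleted in the KO mice, by the study's methods. By the same methods, the neutrophils were isolated magnetically with a kit that is meant to remove other cells. The methods give 6 h of culture for all groups, whereas the titles give 0 h for the unstimulated libraries, so each R848 response may include the effect of 6 h in culture. Neither source says whether duplicates came from separate mice, and p-values therefore measure only the spread between these libraries, which may be technical.

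Cytosolic phospholipase A2, encoded by Pla2g4a, frees arachidonic acid from membranes. Cyclooxygenases convert it to the unstable prostaglandin H2, from which prostaglandin E synthases make prostaglandin E2, a mediator of fever, pain and vessel dilation. In the other branch, 5-lipoxygenase (Alox5) and its helper FLAP (Alox5ap) make leukotriene A4, which Lta4h turns into leukotriene B4, a strong attractant of neutrophils, and which Ltc4s turns into leukotriene C4. Neutrophils are known as a main source of leukotriene B4.

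The libraries held between 562446 and 1177972 counts on genes, so that the floor of 3 counts lay between 2.55 and 5.33 CPM (counts scaled to a fixed library total). Padi4 counts were 590 and 527 in WT Nostim, 166 and 234 in WT R848, 40 and 54 in KO Nostim, and 34 and 21 in KO R848. Its log2 fold change in Padi4 KO against WT was -4.45 (SE 0.13) unstimulated and -3.92 (SE 0.17) after R848, and the reads that remain could come from outside exon 1. Of the neutrophil markers, 11 were in the table, all with counts, and they summed to between 83060 and 126158 CPM of each library. The scaling of the libraries moved the balance of calls over all genes. With TMM factors (trimmed mean of M-values), used throughout, 39.8% of the genes called for the WT response were higher, and with library size alone 23%. For the Padi4 KO response these shares were 47.7% and 23.1%, for Padi4 KO against WT unstimulated 39.9% and 77.2%, and after R848 54.8% and 81.8%. The last share was 42.1% with relative log expression factors, 38.4% with DESeq2 and 34.2% with counts thinned to the smallest library. Under the same settings the share for the WT response was 44.6%, 53% and 49.9%. For the difference of response, 73.3% of the calls were higher with TMM factors, 60% with library size alone, 40.7% with relative log expression factors, 28% with DESeq2 and 20.9% with thinned counts. Without 1 of the 4 R848 libraries it was between 17.2 and 25.7%, the lowest without WT R848 replicate 1. The duplicates of WT R848 differed more than those of the other groups, with a chi-square per degree of freedom of 1.67 over genes against 1.05 to 1.16.

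In WT neutrophils, R848 was accompanied by a change from cyclooxygenase 1 to cyclooxygenase 2 messages, higher prostaglandin E synthase messages and lower leukotriene enzyme messages. Ptgs2, Ptges and Ptges3 rose, so that 3 of the 9 genes tested were called higher, beside 7.17% of all genes. Ptgs1 and Alox5 fell, 2 of 9, beside 10.8% of all genes. A response had to pass 2-fold and an edgeR FDR of 0.1 to be called, where the FDR is the p of edgeR's quasi-likelihood test adjusted by the Benjamini-Hochberg method over all 12254 genes. At this FDR with no fold limit, 3 of 9 were higher (13.5% of all genes) and 4 of 9 lower (16% of all genes), the added ones being Alox5ap and Lta4h.

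In Padi4 KO neutrophils, Ptges rose and was the only 1 of the 9 called higher, beside 8.07% of all genes. Ptgs1 and Pla2g4a fell, 2 of 9, beside 8.84% of all genes. With no fold limit, 2 of 9 were higher (19.2% of all genes) and 5 of 9 lower (15.9% of all genes). The added higher gene was Ptges3, which passed this FDR under only 7 of the 15 alternatives. The median response of the 9 genes was -0.59 log2 units in WT and -0.63 in Padi4 KO, where the medians of all genes tested were -0.17 and -0.031.

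**Figure D1:**
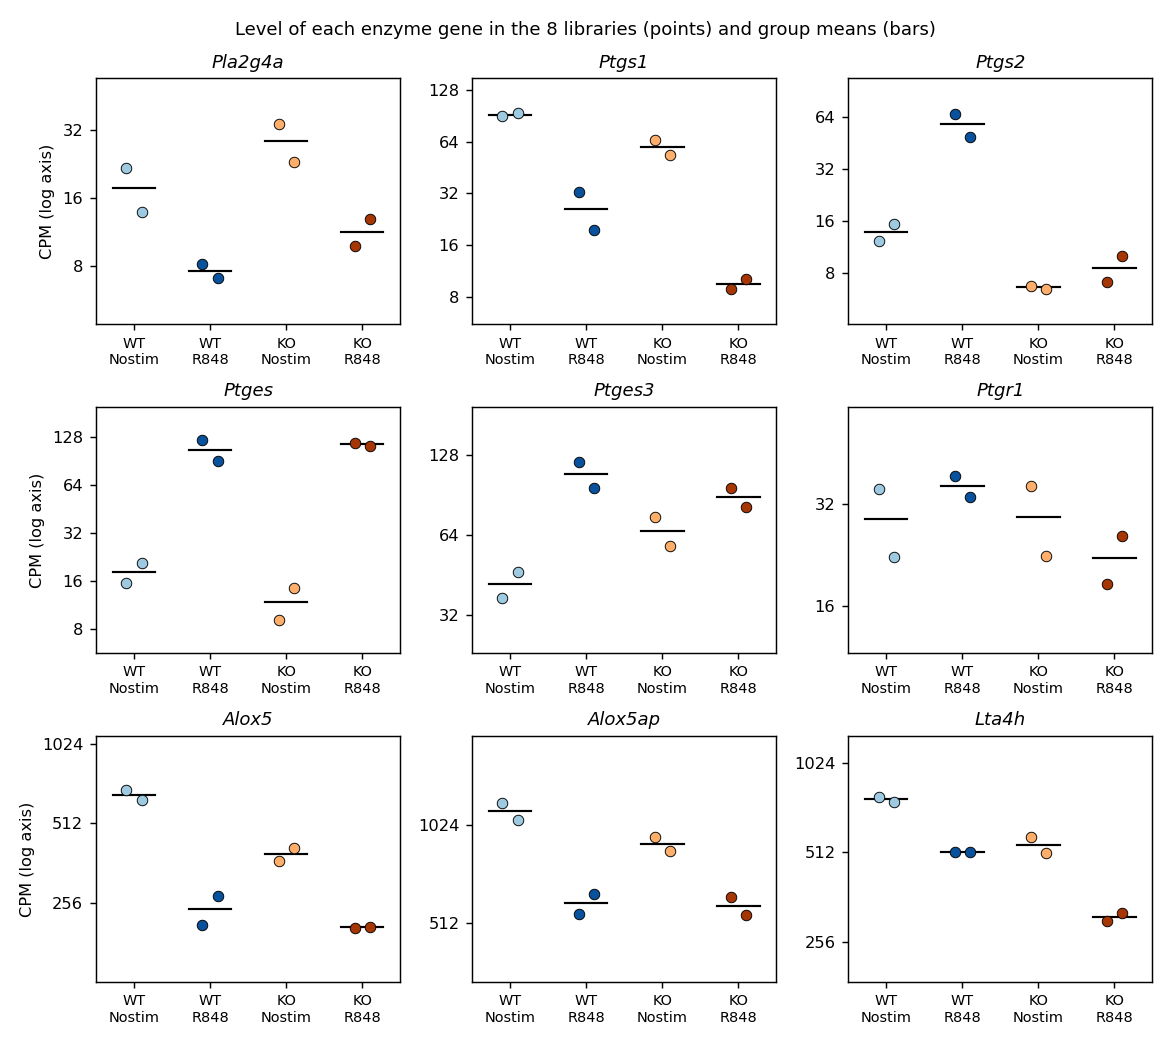
CPM with TMM-scaled library sizes (vertical axis, log scale) of the 9 enzyme genes tested, with a point for each of the 8 libraries and a bar for each group mean. Ptgs2 is highest in the pair of WT R848 libraries, at 67.2 and 49.6 CPM, whereas Ptges is high after R848 in both genotypes, between 90.3 and 122 CPM.

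Pla2g4a (chr1:149829618-149961290 of GRCm38, minus strand), the enzyme at the head of both branches, was a scarce message. It had 14 and 8 counts in WT Nostim, 4 and 4 in WT R848, 30 and 32 in KO Nostim, and 11 and 14 in KO R848. In both genotypes each R848 library lay below each unstimulated library. The response was -1.27 log2 units (SE 0.34, edgeR FDR 0.000951) in Padi4 KO, where it was called. In WT it was -1.23 (SE 0.57, edgeR FDR 0.107) and was not called, though the edgeR FDR was 0.0273 with library size alone, 0.0597 with the filterByExpr filter and 0.0791 without WT Nostim replicate 2. The responses differed by -0.05 log2 units, with a 95% interval from -1.61 to 1.52, which leaves wide room for a difference in either direction.

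Ptgs1 (chr2:36230426-36252272, plus strand), the cyclooxygenase that many cells make at all times, fell in both genotypes. It had 58 and 54 counts in WT Nostim, 16 and 11 in WT R848, 58 and 74 in KO Nostim, and 10 and 11 in KO R848. Every R848 library lay below every unstimulated library. The mean level went from 91.4 ± 2.52 (SD, n = 2) to 26.0 ± 9.29 CPM in WT, a log2 fold change of -1.83 (SE 0.28, edgeR FDR 1.55e-09), or 0.281-fold. In Padi4 KO it went from 59.6 ± 8.40 to 9.50 ± 0.866 CPM, a log2 fold change of -2.60 (SE 0.29, edgeR FDR 1.75e-18), or 0.164-fold. Both calls held under all 15 alternatives. The fall was 0.77 log2 units larger in Padi4 KO, but the interval of this difference ran from -1.67 to 0.12 (edgeR FDR 0.490). Exons of Gm43621 lie over Ptgs1 on the other strand, and reads of the pair cannot be told apart with this library kit.

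Platelets are rich in Ptgs1, and platelet markers moved in the same direction after R848. The 9 megakaryocyte and platelet markers summed to 120 and 99.6 CPM of the library total in WT Nostim and to 19.7 and 19.4 in WT R848. They summed to 226 and 203 CPM in KO Nostim and to 49.2 and 47.6 in KO R848. Counts were found for 9 of the 9 markers in all groups but WT R848, where 7 had counts. On library totals, 8 of the 9 were lower in both R848 libraries than in both unstimulated ones in each genotype (7 in WT with TMM factors), and Gp6 was higher. Between unstimulated genotypes 4 of the 9 (Pf4, Ppbp, Itga2b and Gp5) were higher in Padi4 KO and Gp9 was lower, while Ptgs1 was lower. The magnetic isolation is meant to remove platelets, and their part in the fall of Ptgs1 and Pla2g4a was not tested. In these bulk libraries, fewer cells of a type and less RNA per cell cannot be told apart.

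Ptgs2 (chr1:150100031-150108227, plus strand), the cyclooxygenase that inflammatory signals induce, rose in WT and was not called in Padi4 KO. Counts were 8 and 9 in WT Nostim, 33 and 28 in WT R848, 6 and 9 in KO Nostim, and 8 and 11 in KO R848. The WT R848 libraries stood above all 6 others. The WT level went from 14.0 ± 2.24 to 58.4 ± 12.5 CPM (SD, n = 2), a log2 fold change of 2.05 (SE 0.37, edgeR FDR 3.97e-07), or 4.14-fold. In Padi4 KO the level was 6.66 ± 0.179 and then 8.61 ± 2.12 CPM, a log2 fold change of 0.37 with a 95% interval from -0.62 to 1.35 (edgeR FDR 0.636). With library size alone this value was -0.0053. The test of the difference itself gave -1.68 log2 units (interval from -2.97 to -0.39, edgeR FDR 0.164), which misses the threshold, and without WT R848 replicate 2 it gave -2.13 (edgeR FDR 0.0576). The study picked Ptgs2 and Ptges3 on these libraries as risen in WT and not in Padi4 KO, so neither pattern is independent evidence.

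Monocytes and macrophages also make Ptgs2 when stimulated. Their 10 markers summed to between 482 and 580 CPM of the library total in WT Nostim and to between 2940 and 3048 in WT R848. In Padi4 KO the sums were 1180 to 1220 CPM unstimulated and 3122 to 3206 CPM after R848, where Ptgs2 was not called. The list did not move as one. In WT, 5 of the 10 were higher in both R848 libraries (Adgre1, Csf1r, Cx3cr1, Ms4a6c and Cd68) and others were lower in both, among them Ccr2 and F13a1. Most of the rise of the sum was in Adgre1, with 26 and 22 counts in WT Nostim and 1240 and 1332 in WT R848. F13a1 had 107 and 109 counts and then 24 and 33, and Ccr2 had 26 and 43 and then 14 and 15. These markers were named after their values were seen. The magnetic isolation is meant to remove such cells, and their part in the Ptgs2 response was not tested.

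The sum of both cyclooxygenase genes passed from mostly Ptgs1 to mostly Ptgs2 in WT. Within a library this share does not depend on how libraries are scaled. Ptgs2 made up 12.1% (exact Clopper-Pearson 95% interval 5.38 to 22.5%) and 14.3% (6.75 to 25.4%) of the Ptgs1 and Ptgs2 counts in unstimulated WT. After R848 it made up 67.3% (52.5 to 80.1%) and 71.8% (55.1 to 85.0%). In Padi4 KO the share was 9.38% (3.52 to 19.3%) and 10.8% (5.08 to 19.6%) unstimulated, and 44.4% (21.5 to 69.2%) and 50% (28.2 to 71.8%) after R848. The Padi4 KO R848 libraries thus lay above the unstimulated ones and below the WT R848 ones, although Ptgs2 itself was not called in Padi4 KO, since Ptgs1 fell there. The intervals of the R848 libraries overlap between genotypes and cover counting error only. A comparison of 2 against 2 libraries has a smallest exact permutation p of 0.333, two-sided, so no such test of the shares could pass 0.05.

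**Figure D2:**
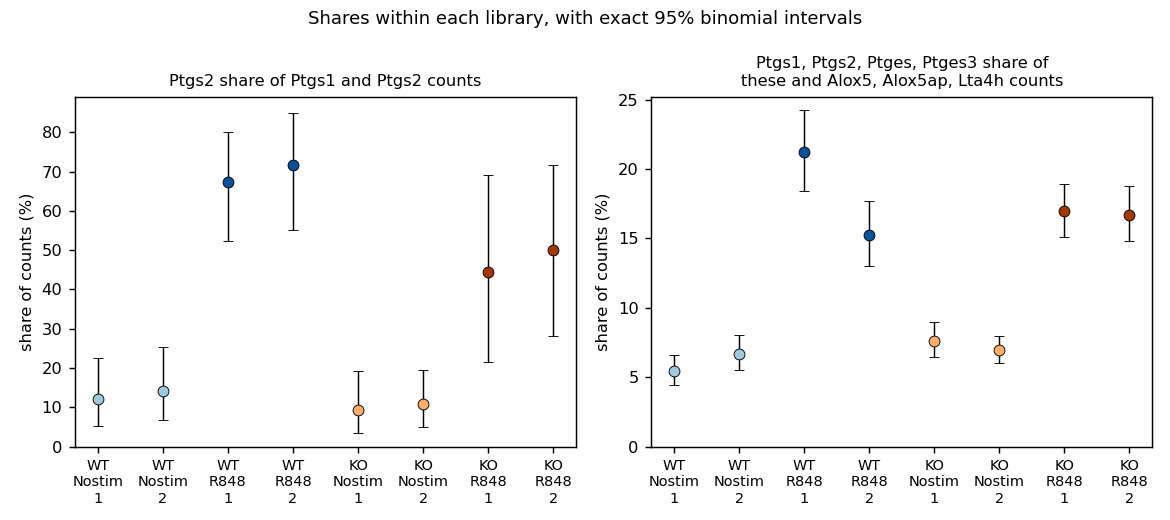
Share of counts in percent (vertical axes) in each of the 8 libraries, with exact 95% binomial intervals: on the left Ptgs2 among Ptgs1 and Ptgs2 counts, on the right the 4 cyclooxygenase and prostaglandin E synthase genes among these and the 3 leukotriene genes Alox5, Alox5ap and Lta4h. The Ptgs2 share is at most 14.3% unstimulated and at least 44.4% after R848, and the share on the right is at most 7.65% unstimulated and at least 15.3% after R848.

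The bases before the start site are shown for the genes that moved most in opposite directions in WT, Ptgs2 and Ptges upward and Ptgs1 and Alox5 downward. They are the 250 bases upstream of the RefSeq start in build GRCm38.p6, 5′ to 3′ on the gene's strand, for Ptgs2 chr1:150099781-150100030 (plus), Ptges chr2:30903298-30903547 (minus), Ptgs1 chr2:36230176-36230425 (plus) and Alox5 chr6:116461179-116461428 (minus). The Ptges stretch lies inside GENCODE's gene span of chr2:30889471-30929863, which begins farther upstream than the RefSeq start. Capitals mark the GC box GGGCGG on the strand shown, a letter string that the factor Sp1 can bind.
Ptgs2: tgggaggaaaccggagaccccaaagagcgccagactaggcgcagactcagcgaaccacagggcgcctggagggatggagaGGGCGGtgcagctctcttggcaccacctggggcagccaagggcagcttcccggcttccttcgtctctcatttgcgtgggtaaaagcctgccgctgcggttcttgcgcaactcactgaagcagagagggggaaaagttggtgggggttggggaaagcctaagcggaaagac
Ptges: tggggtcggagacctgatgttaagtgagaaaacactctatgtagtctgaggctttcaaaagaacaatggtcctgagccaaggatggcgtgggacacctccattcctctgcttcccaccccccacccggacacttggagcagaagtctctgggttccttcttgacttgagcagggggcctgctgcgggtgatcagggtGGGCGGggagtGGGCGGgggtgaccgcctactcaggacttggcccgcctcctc
Ptgs1: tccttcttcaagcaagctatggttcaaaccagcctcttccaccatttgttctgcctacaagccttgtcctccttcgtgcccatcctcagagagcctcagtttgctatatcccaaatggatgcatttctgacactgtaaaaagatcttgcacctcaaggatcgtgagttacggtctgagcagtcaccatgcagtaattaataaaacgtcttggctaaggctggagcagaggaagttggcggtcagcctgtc
Alox5: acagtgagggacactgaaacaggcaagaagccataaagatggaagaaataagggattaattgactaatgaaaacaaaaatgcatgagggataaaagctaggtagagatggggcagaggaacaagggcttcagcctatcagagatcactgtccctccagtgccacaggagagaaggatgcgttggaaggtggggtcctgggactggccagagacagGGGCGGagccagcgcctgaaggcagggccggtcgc

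A RefSeq entry matched 9 of the 10 genes, and all but Alox5ap could be searched, over 250 bases before and 50 after the start. The GC box, searched on both strands, was in 5 of these 9 genes (Alox5, Ptges, Ptges3, Ptgr1 and Ptgs2) and in 35.7% of all 32851 promoters of this length. It was thus present in genes that rose and in Alox5, which fell, and absent from the window of Ptgs1. The letters CGTCA, part of the cyclic AMP response element, were in Ptgs2 and Ptges3 (20.8% of promoters), and the E-box CACGTG was in Ptgs2 (7.15%), where both lie after the start and overlap each other. The NF-kB motif was in Ptges3 alone (8.46%), where it overlaps a GC box. The strings TATAAA on the given strand (8.32%), TGACTCA (5.20%) and TGACGTCA (1.79%) on both strands were in none of the windows. These are letter matches and not sites of binding.

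Ptges (chr2:30889471-30929863, minus strand), the inducible membrane enzyme that works with cyclooxygenase 2, rose in both genotypes. It had 10 and 12 counts in WT Nostim, 60 and 51 in WT R848, 8 and 20 in KO Nostim, and 132 and 122 in KO R848. Every R848 library stood above every unstimulated library. The WT level went from 18.1 ± 3.72 to 106 ± 22.6 CPM (SD, n = 2), a log2 fold change of 2.54 (SE 0.29, edgeR FDR 7.01e-17), or 5.82-fold. The Padi4 KO level went from 11.8 ± 3.86 to 115 ± 3.64 CPM, a log2 fold change of 3.20 (SE 0.23, edgeR FDR 5.14e-43), or 9.18-fold. The responses differed by 0.66 log2 units (95% interval from -0.22 to 1.54, edgeR FDR 0.578). After R848 the genotypes overlapped, with a difference of 0.12 log2 units and an interval from -0.21 to 0.46.

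Ptges and Ptgs2 therefore parted in Padi4 KO. A library held 1.25 and 1.33 Ptges counts for each Ptgs2 count in WT Nostim, 1.82 and 1.82 in WT R848, and 1.33 and 2.22 in KO Nostim. In KO R848 it held 16.5 and 11.1, above all 6 others. With 8 and 11 Ptgs2 counts behind them these ratios are coarse.

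Ptges3 (chr10:128058954-128077272, plus strand), a cytosolic synthase that is also known as the heat shock protein partner p23, rose in WT. It had 24 and 27 counts in WT Nostim, 59 and 54 in WT R848, 66 and 80 in KO Nostim, and 108 and 89 in KO R848. The WT level went from 41.9 ± 6.72 to 108 ± 17.4 CPM (SD, n = 2), a log2 fold change of 1.36 (SE 0.24, edgeR FDR 1.73e-07). In Padi4 KO it was 66.3 ± 11.7 and then 88.9 ± 10.0 CPM, a log2 fold change of 0.46 (SE 0.17, edgeR FDR 0.0230), under the 2-fold limit. This FDR was missed with library size alone (0.08, edgeR FDR 0.746), DESeq2 (0.35, adjusted p 0.485) and thinned counts (0.28, edgeR FDR 0.405). It was also missed without KO Nostim replicate 2 (0.26, edgeR FDR 0.458), KO R848 replicate 1 (0.19, edgeR FDR 0.568), KO R848 replicate 2 (0.44, edgeR FDR 0.1004) or either WT R848 library (0.32 and 0.33, edgeR FDR 0.115 and 0.104). Unstimulated Padi4 KO libraries stood above the unstimulated WT ones and below the WT R848 ones. The difference of response was called at -0.90 log2 units (SE 0.30, edgeR FDR 0.0637). That call was lost with DESeq2 (-1.09, adjusted p 0.214), without WT Nostim replicate 1 (-0.74, edgeR FDR 0.365) and without KO Nostim replicate 1 (-0.76, edgeR FDR 0.256). A pseudogene copy of Ptges3 is annotated, and how reads shared with it were counted is not stated.

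Ptgr1 (chr4:58965439-58987119, minus strand), a reductase that inactivates leukotriene B4 and 15-keto prostaglandins, was not called in any contrast. Its counts ran from 13 to 32, and the groups overlapped within each genotype. The response was 0.29 log2 units in WT (95% interval from -0.38 to 0.96) and -0.33 in Padi4 KO (from -0.88 to 0.22). Padi4 KO against WT gave -0.07 unstimulated and -0.70 after R848 (from -1.33 to -0.06, edgeR FDR 0.152). With relative log expression factors the latter had an edgeR FDR of 0.0775, and with counts thinned to the smallest library 0.0272.

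Alox5 (chr6:116410077-116461178, minus strand), which makes the leukotriene backbone, fell in WT. It had 444 and 365 counts in WT Nostim, 103 and 154 in WT R848, 325 and 570 in KO Nostim, and 231 and 226 in KO R848. On the CPM scale each R848 library lay below each unstimulated library in both genotypes. The WT level went from 658 ± 39.8 to 241 ± 44.4 CPM (SD, n = 2), a log2 fold change of -1.44 (SE 0.11, edgeR FDR 8.67e-35). The Padi4 KO level went from 390 ± 32.6 to 206 ± 1.75 CPM, a log2 fold change of -0.93 (SE 0.10, edgeR FDR 1.29e-18), just under the 2-fold limit, which it passed under 8 of the 15 alternatives. The levels thus began apart and ended close, at 241 and 206 CPM.

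The response of Alox5 was 0.51 log2 units weaker in Padi4 KO (SE 0.16, edgeR FDR 0.0381), and this call was fragile. It was lost with relative log expression factors (0.35, edgeR FDR 0.317), library size alone (0.44, edgeR FDR 0.131), DESeq2 (0.36, adjusted p 0.561) and thinned counts (0.31, edgeR FDR 0.551). It was also lost without WT Nostim replicate 1 (0.45), KO Nostim replicate 1 (0.43), either WT R848 library (0.07 and 0.49) or either KO R848 library (0.28 and 0.28).

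Alox5ap (chr5:149264767-149288153, plus strand), which hands arachidonic acid to 5-lipoxygenase, was the most abundant message of the list. It had 777 and 617 counts in WT Nostim, 268 and 356 in WT R848, 833 and 1174 in KO Nostim, and 694 and 588 in KO R848. Its level went from 1133 ± 96.1 to 588 ± 59.5 CPM (SD, n = 2) in WT and from 897 ± 63.6 to 578 ± 53.9 CPM in Padi4 KO. On the log2 scale the changes were -0.94 (SE 0.09, edgeR FDR 3.15e-24) and -0.63 (SE 0.08, edgeR FDR 6.62e-14), both under the 2-fold limit. With library size alone they were -1.25 and -1.003, past the limit, as was the WT response without WT Nostim replicate 2, at -1.03. The difference was 0.32 log2 units (95% interval from 0.08 to 0.55, edgeR FDR 0.148), and without WT Nostim replicate 2 it was called at 0.40 (edgeR FDR 0.0897). Exons of the antisense gene Gm19719 overlap those of Alox5ap, and reads of the pair cannot be told apart.

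Lta4h (chr10:93453411-93484875, plus strand), which completes leukotriene B4, was also lower after R848, by less than 2-fold. It had 510 and 439 counts in WT Nostim, 253 and 290 in WT R848, 509 and 702 in KO Nostim, and 338 and 348 in KO R848. The mean level went from 773 ± 21.6 to 514 ± 1.54 CPM (SD, n = 2) in WT and from 542 ± 46.7 to 310 ± 13.8 CPM in Padi4 KO. These are log2 fold changes of -0.59 (SE 0.10, edgeR FDR 1.82e-08) and -0.80 (SE 0.09, edgeR FDR 4.08e-17). The Padi4 KO response passed 2-fold with library size alone (-1.17) and with thinned counts (-1.02). The responses differed by -0.21 log2 units (95% interval from -0.47 to 0.05, edgeR FDR 0.539). That difference was called with thinned counts (-0.55, edgeR FDR 0.0186), and it was -0.48 without WT R848 replicate 1 and -0.44 without WT R848 replicate 2. The same settings moved the median difference of all genes with a mean of at least 10 counts, by -0.28, -0.25 and -0.24 log2 units. The move of Lta4h was thus in part shared by all genes. The 3 leukotriene B4 genes passed the FDR downward in both genotypes under all 15 alternatives.

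Ltc4s (chr11:50236461-50238616, minus strand), which makes the cysteinyl leukotriene C4 and marks mast cells, basophils and eosinophils, had 0 counts in 7 libraries and 1 count in KO R848 replicate 1. A count of 0 allows up to 2.65 to 5.33 CPM in these libraries, so a low level would not have been detectable at this depth. The 11 eosinophil, basophil and mast cell markers summed to at most 79.6 CPM of any library, and Il5ra was at 0 throughout.

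The balance of the branches moved after R848 in both genotypes. Ptgs1, Ptgs2, Ptges and Ptges3 together made up 5.46 and 6.70% of their own counts plus those of Alox5, Alox5ap and Lta4h in unstimulated WT and 21.2 and 15.3% after R848. In Padi4 KO they made up 7.65 and 6.96% and, after R848, 17.0 and 16.7%. The exact 95% intervals of the R848 libraries began at 13.02% or above and those of the unstimulated libraries ended at 8.97% or below. The intervals cover counting error only, and those of the WT R848 duplicates, 18.4 to 24.2% and 13.02 to 17.7%, did not overlap, so that these libraries differed by more than counting error.

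The question of whether the genotypes respond differently was tested directly. Of the 9 genes, 1 was called higher in the difference of response (Alox5, beside 3.45% of all genes) and 1 lower (Ptges3, beside 1.26%). Without 1 of the 4 R848 libraries, between 0.419 and 0.994% of all genes were called higher. The median difference of the 9 genes was -0.21 log2 units and that of all genes tested 0.19. The 7 others were not called, though Ptgs2, Alox5ap and Lta4h were under the settings named beside them, and the 95% intervals of Pla2g4a and Ptgs2 spanned more than 2 log2 units. DESeq2 called none of the 9 and gave no adjusted p for 5 of them, while 3 were lower and 0 higher at its unadjusted p under 0.05.

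**Figure D3:**
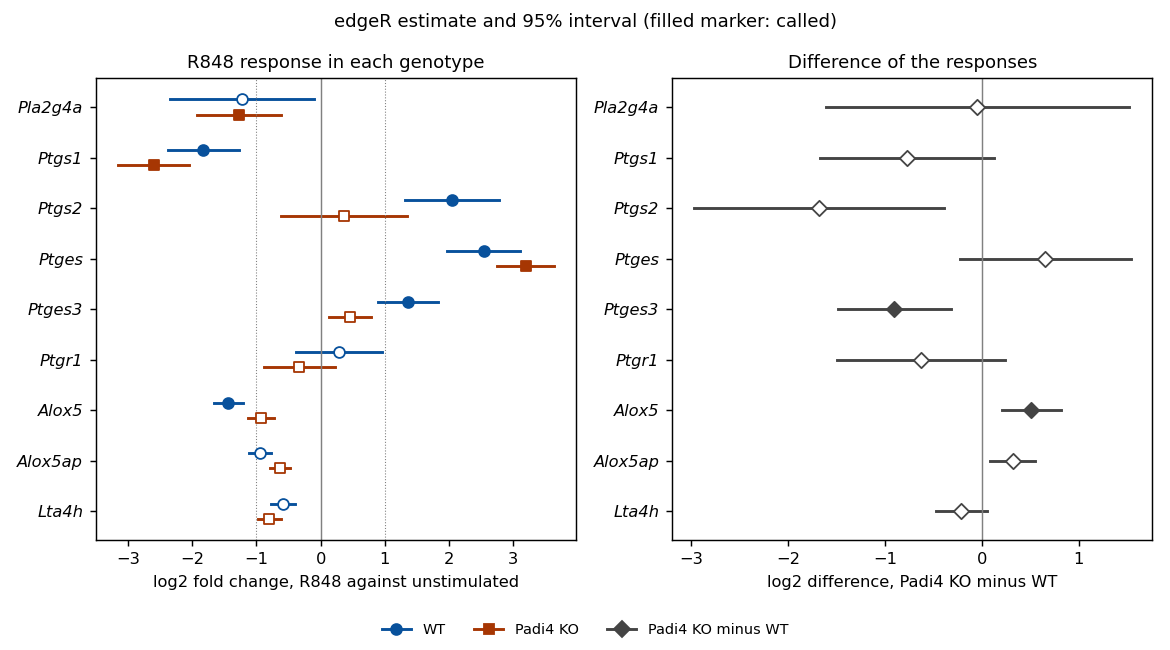
Estimates of edgeR with 95% intervals for the 9 genes: on the left the log2 fold change of R848 against unstimulated in WT (circles) and Padi4 KO (squares), with dotted lines at 2-fold, and on the right the difference, Padi4 KO minus WT. Filled markers were called, and Ptgs2 shows the widest gap of the genotypes on the left, 2.05 against 0.37.

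Before stimulation, Padi4 KO neutrophils had lower messages for the leukotriene branch and for Ptgs1. Of the 9 genes, 4 were called lower in Padi4 KO (14.4% of all genes) and 1 was called higher, Ptges3 (9.55% of all genes). A genotype difference was called at an edgeR FDR below 0.1 with no fold limit. Alox5 had a log2 fold change of -0.75 (SE 0.09, edgeR FDR 1.74e-13), Lta4h of -0.52 (SE 0.09, edgeR FDR 9.52e-08), Alox5ap of -0.34 (SE 0.08, edgeR FDR 0.000198) and Ptgs1 of -0.64 (SE 0.19, edgeR FDR 0.00740). Ptges3 was higher by 0.64 (SE 0.23, edgeR FDR 0.0373). The median of all genes with a mean of at least 10 counts was itself -0.16 log2 units in this contrast.

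Only Alox5 and Lta4h kept their calls under all 15 alternatives. With library size alone, which shifts the median of all well counted genes by 0.29 log2 units in this contrast, Alox5ap was at -0.06 and Ptgs1 at -0.36, neither called, and Pla2g4a was called higher at 0.90 (edgeR FDR 0.0658). With DESeq2, Ptgs1 (adjusted p 0.375), Alox5ap (0.111) and Ptges3 (0.195) were not called, and without KO Nostim replicate 2 Ptgs1 was not (edgeR FDR 0.208). The Ptges3 call was lost without WT Nostim replicate 1 (0.47) and without KO Nostim replicate 1 (0.49).

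After R848, Padi4 KO neutrophils had lower messages for both cyclooxygenases and for Lta4h. Those 3 of the 9 genes were called lower (7.81% of all genes) and 0 were called higher (9.46% of all genes), also with DESeq2, and none of the 9 was higher at an unadjusted p under 0.05. Ptgs2 was lower by the widest margin, with a log2 fold change of -2.73 (SE 0.35, edgeR FDR 1.09e-12), or 0.151-fold. Ptgs1 had -1.42 (SE 0.42, edgeR FDR 0.00828) and Lta4h -0.73 (SE 0.10, edgeR FDR 4.56e-11). The calls of Ptgs2 and Lta4h held under all 15 alternatives, whereas Ptgs1 was lost without WT R848 replicate 1 (-1.17, edgeR FDR 0.190). Alox5 (-0.24), Alox5ap (-0.03), Ptges (0.12) and Ptges3 (-0.27) were not called, though Alox5 and Ptgr1 passed with relative log expression factors and with thinned counts, when 5 of 9 were lower, beside 11.1% and 11.5% of all genes. Without WT R848 replicate 1, Alox5 (-0.54, edgeR FDR 0.00311) and Alox5ap (-0.27, edgeR FDR 0.0653) were called lower, and without KO R848 replicate 2 Ptgr1 was (-1.04, edgeR FDR 0.0663).

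**Figure D4:**
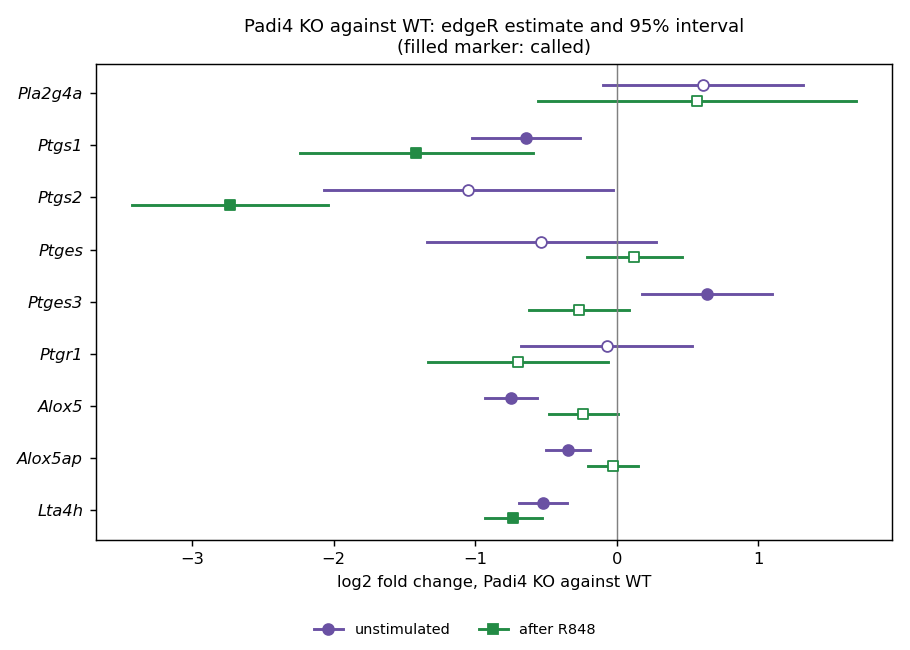
Log2 fold change of Padi4 KO against WT (horizontal axis) with 95% intervals for the 9 genes, unstimulated (circles) and after R848 (squares), filled where called. Ptgs2 after R848 lies farthest from 0, at -2.73, and Lta4h and Ptgs1 are below 0 in both conditions.

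The sums of erythroid, stromal, monocyte and platelet markers were higher in the unstimulated Padi4 KO libraries than in the WT ones. The erythroid list summed to 472 and 484 CPM of the library total against 43.7 and 51.6. The stromal and endothelial list summed to 508 and 654 against 217 and 185, and the monocyte list to 1220 and 1180 against 482 and 580. On library totals, 7 of 11 erythroid and 8 of 10 monocyte markers were higher in both Padi4 KO libraries, and 0 were lower. Of the stromal and endothelial list only 3 of 8 were higher (Cxcl12, Col1a1 and Col1a2). Its sum was nearly all Col1a1 and Col1a2, and its other markers had at most 4 counts in an unstimulated library. The neutrophil markers summed to 100226 and 98500 against 126158 and 119611 CPM, and after R848 to 84573 and 83060 against 116247 and 101706 CPM. Of the 11, 9 were lower in both unstimulated Padi4 KO libraries than in both WT ones, and Cxcr2 and Csf3r were higher on library totals, at 1385 and 1300 against 1140 and 1241 CPM and at 2260 and 2275 against 2120 and 2167 CPM. With TMM factors, as used for the enzyme genes, all 11 were lower. After R848, 8 of the 11 were lower on library totals and Cxcr2 and Csf3r were again higher, and with TMM factors 9 were lower and Csf3r was higher. Of the erythroid list, Hba-a1, Hba-a2, Hbb-bs and Hbb-bt were listed at 0 in all libraries. The part of cell makeup in the genotype differences was not tested. B cell markers summed to at most 15.9 CPM and T and NK cell markers to at most 39.0 CPM in any library.

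Levels between genes were compared per kilobase of exon (CPM divided by the length of the merged annotated exons). Alox5ap led in all 4 groups, followed by Lta4h and Alox5, with no overlap between these 3. In unstimulated WT they stood at 842 ± 71.4, 381 ± 10.6 and 233 ± 14.1 CPM per kilobase (SD, n = 2). Ptgs1 came next at 31.9 ± 0.879, then Ptges3 at 20.9 ± 3.36 and Ptgr1 at 12.6 ± 4.04. Pla2g4a at 5.81 ± 1.81 and Ptges at 4.96 ± 1.02 overlapped, and Ptgs2 was lowest of the genes tested at 3.13 ± 0.503.

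In unstimulated Padi4 KO, Ptges3 (33.2 ± 5.86) already stood above Ptgs1 (20.8 ± 2.93), followed by Ptgr1 (12.8 ± 4.21) and Pla2g4a (9.36 ± 2.48), which overlapped, then Ptges (3.23 ± 1.06) and Ptgs2 (1.49 ± 0.0402).

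In WT after R848, Ptges3 was at 54.0 ± 8.71 and Ptges at 29.1 ± 6.20 CPM per kilobase. Ptgr1 (15.8 ± 1.57) overlapped Ptgs2 (13.1 ± 2.81), which overlapped Ptgs1 (9.08 ± 3.24), and Pla2g4a was at 2.50 ± 0.248. In Padi4 KO after R848, Ptges3 (44.4 ± 5.004) again followed the leukotriene genes and Ptges (31.4 ± 0.998) came next. Ptgs1 (3.31 ± 0.302) overlapped Pla2g4a (3.71 ± 0.717), and Ptgs2 stayed lowest of the genes tested at 1.93 ± 0.477. By CPM averaged over all 8 libraries, which pools groups of unlike levels, Alox5ap, Lta4h and Alox5 ranked 148, 248 and 418 among the 12254 genes tested, while Ptgs2 ranked 5352.

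Pla2g4a and Ptgs2 are neighbours on chromosome 1 with 138.74 kb between them, in which 3 genes are annotated and none codes for protein. Their R848 responses in WT were -1.23 (not called) and 2.05 log2 units.

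The wider pathway was described with 72 other genes, all in the table, of which 50 were tested. In the WT response 7 were called higher and 13 lower, beside 7.17% and 10.8% of all genes, and 4 of the 13 (Pla2g12a, Cbr1, Alox12 and Ptgdr) had no counts left after R848. In Padi4 KO 7 were higher and 8 lower, beside 8.07% and 8.84%. The median response of the 50 was -0.43 log2 units in WT and -0.0074 in Padi4 KO.

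Among the genes of arachidonate release and re-uptake, 18 of 26 were tested, and in WT 4 were called higher and 4 lower, beside 7.17% and 10.8% of all genes. Pla2g7, which breaks down platelet-activating factor, went from 202 ± 25.0 to 2002 ± 229.7 CPM in WT and from 148 ± 13.9 to 1583 ± 94.3 CPM in Padi4 KO (SD, n = 2), with log2 fold changes of 3.31 and 3.43. Acsl5, which activates long-chain fatty acids, rose by 3.25 log2 units in WT (edgeR FDR 9.64e-155) and by 3.19 in Padi4 KO. Lpcat1, which puts fatty acids back on lysophospholipids, fell in WT by 2.14 (edgeR FDR 2.9e-07), and Daglb, a diacylglycerol lipase, by 2.09. Daglb also fell in Padi4 KO, by 1.59. Pla2g12a, a secreted phospholipase, had 4 and 1 counts in unstimulated WT and 0 and 0 after R848, at or under the floor in both.

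Lpcat1 was also called for the difference of response, at 1.76 log2 units (SE 0.45, edgeR FDR 0.00725). Its counts were 36 and 31 in WT Nostim, 5 and 8 in WT R848, 44 and 66 in KO Nostim, and 46 and 37 in KO R848, so that only the WT R848 pair was low. The other call among the 50 was Cotl1, a protein that binds 5-lipoxygenase, at 0.35 (SE 0.11, edgeR FDR 0.0469). These 2 of 50 were higher in the difference, a share near the 3.45% of all genes. DESeq2 called neither, with 0 of the 50 higher and 0 lower, and 0 were higher without WT R848 replicate 1 or without KO R848 replicate 1. In edgeR's test 0 of the 50 were lower, beside 1.26% of all genes, and 0 were lower at an unadjusted p under 0.05, where 5 were higher.

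Of the prostanoid synthases, 5 of 9 were tested. In WT 1 was called higher and 2 lower, and in Padi4 KO 1 and 1, beside 7.17% and 10.8% and then 8.07% and 8.84% of all genes. Ptges2, the third prostaglandin E synthase, rose with Ptges, from 8 and 15 to 72 and 89 counts in WT and from 14 and 15 to 128 and 164 in Padi4 KO. Its log2 fold change was 3.01 (SE 0.26, edgeR FDR 2.15e-28) in WT and 3.35 (SE 0.22, edgeR FDR 3.62e-50) in Padi4 KO. Tbxas1, thromboxane synthase, which platelets also make, fell in both genotypes, by 1.57 log2 units in WT (edgeR FDR 0.000663) and by 1.02 in Padi4 KO (edgeR FDR 0.0197). The other fall in WT was Cbr1, at 3 and 2 counts and then 0 and 0. Tbxas1 was also lower in unstimulated Padi4 KO than in WT, at 21.1 ± 1.00 against 42.1 ± 8.25 CPM, a log2 fold change of -0.99 (edgeR FDR 0.00774). Of the lipoxygenases other than Alox5, 2 of 6 were tested and 1 was called lower in each genotype, beside 10.8% and 8.84% of all genes. It was Alox12, the platelet-type lipoxygenase, with 4 and 7 counts in WT Nostim, 0 and 0 in WT R848, 6 and 3 in KO Nostim, and 0 and 1 in KO R848.

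In leukotriene conversion, breakdown and export, 9 of 10 genes were tested. Abcc1, a pump that exports leukotriene C4 and many other conjugates, had the largest rise among the 50 in both genotypes. Its counts were 11 and 11 in WT Nostim, 443 and 526 in WT R848, 21 and 23 in KO Nostim, and 846 and 836 in KO R848. The log2 fold changes were 5.66 (SE 0.18, edgeR FDR 2.01e-220) and 5.28 (SE 0.14, edgeR FDR 2.32e-284). Mgst2, a microsomal transferase that can make leukotriene C4, fell by 1.86 log2 units in WT (edgeR FDR 6.84e-10) and by 1.41 in Padi4 KO (edgeR FDR 7.94e-09). Anxa1, a protein that restrains phospholipase A2, fell by 1.08 in WT (edgeR FDR 4.62e-50) and by 1.16 in Padi4 KO (edgeR FDR 5.38e-61).

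Between genotypes, 5 of the 50 were higher and 16 lower in unstimulated Padi4 KO, beside 9.55% and 14.4% of all genes. With library size alone 8 were higher and 8 lower (15.5% and 4.58% of all genes), and with DESeq2 3 and 8 (3.88% and 4.78%). After R848, 8 were higher and 9 lower, beside 9.46% and 7.81%. Of the genes called higher, 2 of 5 unstimulated (Pla2g4c and Gstm5) and 4 of 8 after R848 (Pla2g12a, Cbr1, Gstm5 and Mgst3) had 0 counts in both WT libraries. Mgst3, a relative of Mgst2, had 0 and 1 counts in unstimulated WT and 10 and 17 in Padi4 KO, a ratio of 17.9 with an exact counting interval from 2.94 to 731. After R848 it had 0 and 0 counts against 45 and 44, at least 8.19-fold higher in Padi4 KO against a floor of 3 counts per library, on CPM of the library total. Pla2g12a, at 12 and 19 counts against 0 and 0 after R848, was at least 2.87-fold higher. The erythroid markers were also higher in Padi4 KO after R848, at 748 and 762 CPM of the library total against 9.83 and 10.5, and their part in these genes was not tested. Acsl1, another activator of long-chain fatty acids, was lower in Padi4 KO in both conditions, by 1.28 and 1.16 log2 units (edgeR FDR 2.56e-31 and 1.89e-18).

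Of the remaining genes that the rule named, Zadh2, a prostaglandin reductase, was higher in unstimulated Padi4 KO by 1.42 log2 units (SE 0.49), and Ggt5, which trims leukotriene C4, was lower by 1.02 (SE 0.18). After R848, Ptger2, a receptor of prostaglandin E2, was lower in Padi4 KO by 0.74 (SE 0.31, edgeR FDR 0.0890) and Anxa1 by 0.59 (SE 0.07). Of the prostanoid receptors, 6 of 9 were tested and 1 was called lower in the WT response, beside 10.8% of all genes. It was Ptgdr, a receptor of prostaglandin D2, at 4 and 3 counts and then 0 and 0. Of the leukotriene and lipoxin receptors, 4 of 5 were tested and 1 rose in each genotype, beside 7.17% and 8.07% of all genes. It was Fpr2, which also binds formyl peptides, with log2 fold changes of 1.49 in WT and 1.71 in Padi4 KO. Ltb4r1, the high-affinity receptor of leukotriene B4, was lower after R848 by less than 2-fold, at -0.84 in WT (edgeR FDR 9.48e-09) and -0.35 in Padi4 KO (edgeR FDR 0.0123). It was called lower in unstimulated Padi4 KO than in WT, at -0.68 (edgeR FDR 1.19e-07).

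**Figure D5:**
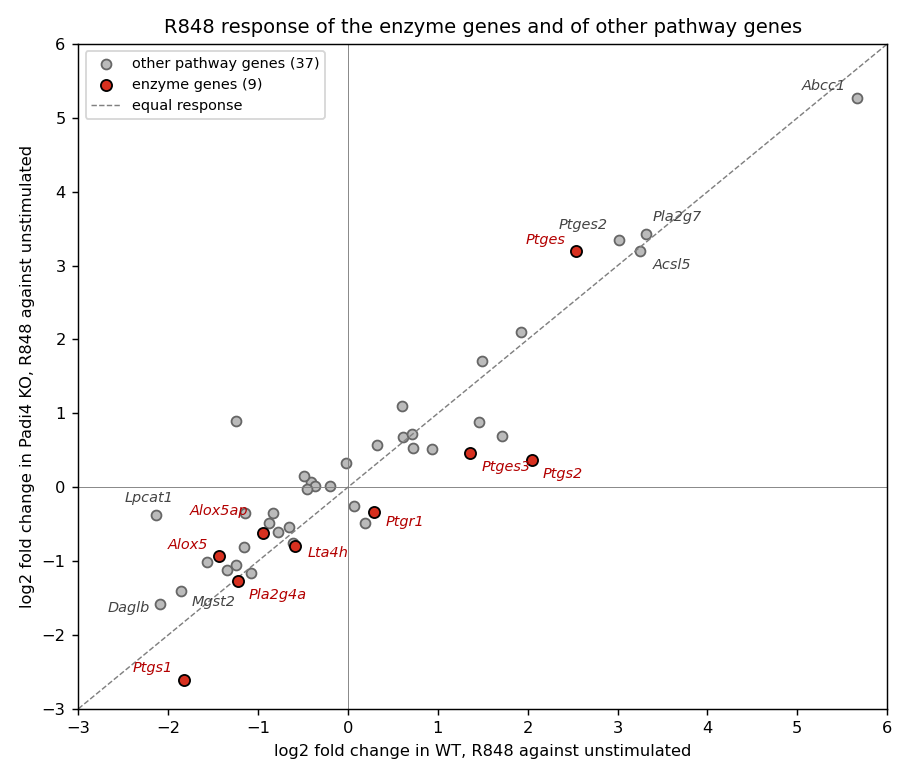
Log2 fold change of R848 against unstimulated in WT (horizontal axis) and in Padi4 KO (vertical axis) for the 9 enzyme genes (red) and the 37 other pathway genes with counts in all 4 groups (grey), with the line of equal response. Ptgs2 and Ptges3 lie below the line, Lpcat1 above it, and Abcc1 is farthest out at 5.66 and 5.28.

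As a description, the genes whose log2(CPM + 1) followed Ptgs2 most closely over the 8 libraries, among 6911 genes, were G0s2 (Pearson r 0.985), Actg1 (0.980) and Srf (0.977). For Alox5ap, the most abundant of the list, they were Tgds (0.993), Slc39a11 (0.992) and Mettl9 (0.987). The points share 4 groups and the same library scaling, and the best of many genes will always correlate highly over 8 points.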

How the data were processed

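The authors trimmed reads with cutadapt 1.16, mapped them to mm10 with STAR 2.5.3a and counted them with HTSeq 0.6.1p1, by the submitters' processing notes. What the authors deposited are raw read counts per gene symbol, with no normalization. The annotation and strand setting of the counting are not given in the sources used here. HTSeq's summary rows were left out, which left between 87% and 89.4% of each library on genes. Libraries held between 562446 and 1177972 counts.

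Genes with at least 1 count in at least 2 of 8 libraries were fitted in R 4.3.3 with edgeR 4.0.16 (robust quasi-likelihood test, TMM factors, 1 mean per group) and p-values adjusted by the Benjamini-Hochberg method. The SE was taken as the size of the log2 fold change over the square root of F. CPM used TMM factors, except floors, bounds and marker sums, which used library totals. Counts were simulated with 1 spread common to all genes and groups, and 200 genes with a mean of at least 10 counts were changed by 1.5 log2 units. Among 12256 genes tested, edgeR recovered 162 WT responses and 134 differences. Recovery of genes with fewer counts, or with the wider spread of WT R848, was not simulated.

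The enzymes and all gene lists were chosen with earlier results of these data known. Pathway genes were named by rule: in each contrast the 3 largest called rises and falls with a mean of at least 10 counts. Alox12, Ptgdr, Cbr1, Fpr2, Ltb4r1, Pla2g4c, Gstm5 and the markers named singly are not covered by it, and their choice followed a look at their values. Alternatives were relative log expression factors, library size alone, filterByExpr, no filter, DESeq2 1.42.0, a replicate block, thinning to the smallest library, and leaving out each library. The methods name DESeq2, which was run here as an alternative. Gene models are GENCODE's on GRCm38.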

Additional observations from a re-analysis of the deposited data

Results flagged for a closer look

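The R848 responses of 2 enzyme genes differed between the genotypes in edgeR's test of the difference. Alox5 fell by less in Padi4 KO, with a difference of 0.51 log2 units (edgeR FDR 0.0381). Ptges3 rose by less in Padi4 KO, with a difference of -0.90 (edgeR FDR 0.0637), and its unstimulated level was already higher there. Over the 15 alternatives the Alox5 difference ranged from 0.07 to 0.60 and was called under 5, and the Ptges3 difference ranged from -1.30 to -0.74 and was called under 12. Groups of 2 libraries are too small for a test of 1 library against the others of its group. The disagreement of duplicates over genes was highest in WT R848, with a chi-square per degree of freedom of 1.67.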

How the results depend on the processing

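Of 150 counts of enzyme genes called under the alternatives, 122 stayed within 1.5 times the reported count and 28 did not, and of 675 log2 fold changes 21 changed sign. Except for the shift that a scaling gives to all genes, the causes were not tested. Library size alone moved the median of well counted genes by -0.30 (WT response), -0.38 (Padi4 KO response), 0.29 (unstimulated) and 0.21 (R848) log2 units. Relative log expression factors and DESeq2 moved the median of the difference by -0.16. Thinning moved it by -0.28, and leaving out any 1 of the 4 R848 libraries by -0.24 to -0.25. It was 0.18 as reported and lay between -0.10 and -0.06 with thinning or without an R848 library. Depth limits Pla2g4a, Ptgs2, Ptges and Ptgs1, whose lowest libraries had 4, 6, 8 and 10 counts.

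With library size alone, 4 enzyme genes were lower in the WT response (17.2% of all genes), 5 in the Padi4 KO response (16.9%) and 2 in unstimulated Padi4 KO against WT (4.58%), where 2 were higher (15.5%), and 0 were higher in the difference (2.08%). The other pathway genes called were then 1 higher in the difference, 8 higher and 8 lower unstimulated, and 3 lower after R848 (3.4% of all genes). With DESeq2, 0 enzyme genes were called in either direction for the difference (5 of the 9 had no adjusted p, and 3 were lower and 0 higher at an unadjusted p under 0.05), and unstimulated 0 were higher and 2 lower. It called 0.286% of all genes higher and 0.734% lower in the difference and 3.88% and 4.78% unstimulated. Its counts of other pathway genes were 5 lower in the Padi4 KO response (4.89% of all genes), 0 higher in the difference, 3 higher and 8 lower unstimulated, and 4 higher after R848 (3.16%). Relative log expression factors gave 0 enzyme genes higher in the difference (1.31% of all genes) and 5 lower after R848 (11.1%), and 1 other pathway gene higher in the difference. Thinning gave 0 higher (0.632% of all genes) and 2 lower (2.39%) in the difference and 5 lower after R848 (11.5%), and 1 other pathway gene higher and 1 lower in the difference. The filterByExpr filter, which tests fewer genes, gave 3 other pathway genes higher unstimulated and 5 after R848 (15.1% of all genes in each).

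Leaving out 1 library at a time gave 2 to 4 enzyme genes lower in the WT response (7.4 to 11% of all genes), 0 to 1 higher unstimulated (6.43 to 13.1%), and 0 to 2 higher (0.419 to 2.42%) and 0 to 3 lower (0.81 to 2.87%) in the difference. The other pathway genes then ran from 0 to 3 higher and 0 to 1 lower in the difference and from 10 to 13 lower unstimulated (9.27 to 11.7%).

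None of the values was called in the setting where it changed sign. Ptgr1 unstimulated was 0.0413 with DESeq2, 0.214 with library size alone, 0.218 with thinning and -0.37 to 0.31 leaving out a library, and in the WT response -0.0094 with library size alone. Ptgs2 in Padi4 KO was -0.0053 with library size alone and -0.0264 to 0.46 leaving out a library. After R848, Ptges was -0.0400 with thinning and -0.17 to 0.20 leaving out a library, and Alox5ap 0.186 with library size alone and -0.27 to 0.0016 leaving out a library. In the difference, Alox5ap ran from -0.0491 to 0.40 and Pla2g4a from -0.48 to 0.22.

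Differences between duplicates correlated by -0.019 to 0.021 between groups, so no pairing by replicate number was seen. Outside WT R848, duplicates differed by little more than counting error, with a chi-square per degree of freedom of 1.05 to 1.16. The correlations therefore could not exclude a pairing. With the replicate number as a block, all counts of enzyme genes were the same as reported (3 higher and 2 lower in the WT response), and other pathway genes lower in the WT response went from 13 to 12.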
